A study of Mus musculus with 4 samples.

Results

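Transcript levels of 9 genes that move calcium or read calcium signals at egg activation were described in mouse oocytes: Itpr1, Cacna1h, Trpm7, Orai1, Stim1, Atp2a2, Atp2b1, Camk2g and Ppp3ca. They were chosen by gene symbol for their known roles, out of 23309 gene symbols in the deposited tables, and each was found on a single row. Earlier results of these data were known when the genes were chosen. Of the 9 genes, 8 had a mean of at least 1 FPKM over the 4 libraries, as did 9990 of all symbols. Stim1 was below that level and is described by its values only. FPKM is a count of sequenced fragments scaled to the length of the transcript and to the fragments mapped in the library. It can be compared between genes, but it gives a share of each library and not an amount of mRNA in a cell.

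The series holds bulk RNA sequencing of ICR-strain oocytes in 4 groups with 1 library each. These are the library labelled Erk-/- MII, wild-type MII, Erk-/- GV and wild-type GV. GV oocytes are fully grown and still hold an intact nucleus, the germinal vesicle, and MII oocytes are mature eggs arrested at the second meiotic metaphase. Per the labels' protocols, 60 oocytes or embryos were lysed together for RNA and came from females 21 to 23 days old given PMSG, which stimulates follicles to grow, and hCG, which triggers maturation. The labels do not say which hormone was used for which library, which ERK gene or exons were deleted, or what drove the deletion. The design text speaks of a single oocyte per group, and the mutant females named in the treatment text are Btg4-/-. With no replicate, every difference below is between 2 pools of oocytes, no p-value can be given, and a difference due to genotype or stage cannot be told apart from one between pools.

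Mapk3, which encodes ERK1, was examined first (mm9 chromosome 7, 133903140 to 133909330). It had 34.3 FPKM in the library labelled Erk-/- MII and 25.7 in wild-type MII, against 52.3 in Erk-/- GV and 333 in wild-type GV, a value above its own upper bound of 316. The order at MII goes against the label and turned when the libraries were scaled by the median of ratios (log2 ratio 0.40 as deposited and -0.12 scaled). The mature library is therefore called the library labelled Erk-/- MII. All 10 oocyte markers were above 1 FPKM in every library, with a summed level of 12687 to 20013 FPKM. Of 14 granulosa and cumulus markers, 9 to 11 were listed at 0 per library, among them Foxl2, Fshr and Amh in all 4. The summed level of the 14 was 13.7 to 29.5 FPKM, most of it from Cyp19a1, Nr5a2 and Inha. These differed between libraries. Cyp19a1 had 10.8 FPKM in the library labelled Erk-/- MII, 21.8 in wild-type MII and 15.5 in wild-type GV. It was listed at 0 in Erk-/- GV, where Nr5a2 (17.0) and Inha (11.3) had their highest levels. The list was thus not uniformly absent. Of 8 theca, stroma, vessel and blood markers, 7 were listed at 0 in every library, and Pecam1 alone had 25.6 to 64.3 FPKM. Of 5 sperm markers, 4 or 5 were listed at 0 per library, and their summed level was 0 to 13.6 FPKM, all of it Prm2. Relative depth, judged from the width of the deposited bounds over 2362 genes, was 0.807 to 1.06 of the wild-type GV library.

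At fertilisation the mammalian egg shows repeated rises of cytosolic calcium. The sperm brings a phospholipase, IP3 opens IP3 receptors on the endoplasmic reticulum, pumps clear the calcium again, and entry across the plasma membrane refills the store. Calmodulin-dependent kinase reads the rises and releases the egg from metaphase arrest, and a calcium-dependent phosphatase is known to act at this exit in frog eggs. Transcription is largely silent in the fully grown oocyte, which relies on mRNA stored during growth. Part of that mRNA decays during maturation, and part gains a longer poly(A) tail. How far the library preparation depends on tail length is not stated in the labels.

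The most abundant of the 9 was Atp2a2 in every library, and its share of their summed FPKM was 66.1% in the library labelled Erk-/- MII and 64.2% in wild-type MII, against 35.4% in Erk-/- GV and 31.7% in wild-type GV. The summed level of the 9 was 331 FPKM in the library labelled Erk-/- MII and 184 in wild-type MII, against 399 in Erk-/- GV and 353 in wild-type GV. Scaled by the median of ratios, the sums were 308 in the library labelled Erk-/- MII and 248 in wild-type MII, against 323 in Erk-/- GV and 269 in wild-type GV, so most of the gap between stages in wild type was lost. At least 10 FPKM was reached by 5 genes in the library labelled Erk-/- MII and by 3 in wild-type MII, against 7 in each GV library. The 3 genes in wild-type MII were Atp2a2, Atp2b1 and Itpr1. In wild-type GV the order by level was Atp2a2, Camk2g, Orai1, Itpr1, Cacna1h, Atp2b1, Ppp3ca, Trpm7 and Stim1, and the bounds of Camk2g and Orai1, and of Ppp3ca and Trpm7, overlapped. In wild-type MII it was Atp2a2, Atp2b1, Itpr1, Camk2g, Cacna1h, Trpm7, Orai1, Ppp3ca and Stim1. There the bounds overlapped between Atp2b1 and Itpr1, between Camk2g and Cacna1h, and between Trpm7 and Orai1.

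**Figure D1:**
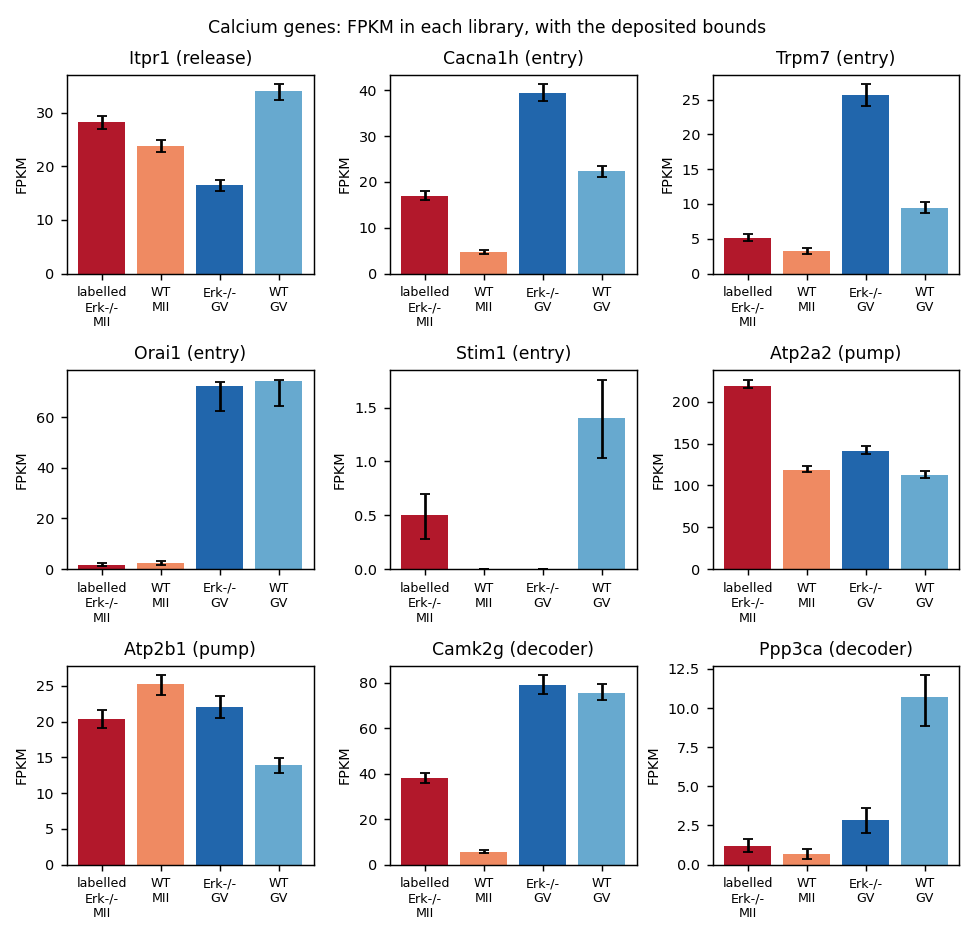
FPKM of each of the 9 calcium genes (vertical axes, each on its own linear scale from 0) in the 4 libraries, with bars for the deposited values and lines for the deposited bounds. Orai1 had 1.70 FPKM (labelled Erk-/-) and 2.44 (wild type) at MII, against 72.5 (Erk-/-) and 74.3 (wild type) at GV, while Atp2a2 was not lower at MII in either genotype.

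Itpr1 encodes the type 1 IP3 receptor, the channel that releases stored calcium in the egg (mm9 chromosome 6, 108163090 to 108501110). It had 28.2 FPKM in the library labelled Erk-/- MII (bounds 26.9 to 29.4) and 23.7 in wild-type MII (22.6 to 24.8), against 16.4 in Erk-/- GV (15.4 to 17.4) and 33.9 in wild-type GV (32.4 to 35.3). No bounds of these 4 values overlapped, and the GV libraries were further apart than the MII libraries. The log2 ratio of (FPKM + 1), the scale used for all ratios here, was -0.50 for MII over GV in wild type and 0.75 in the oocytes labelled Erk-/-. Under scaling the first turned to 0.30. It was 0.24 for the MII library labelled Erk-/- over wild-type MII, where scaling turned it to -0.28, and -1.0 for Erk-/- GV over wild-type GV.

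The related receptor gene Itpr2 had 21.6 FPKM in the library labelled Erk-/- MII and 21.7 in wild-type MII, against 18.0 in Erk-/- GV and 17.1 in wild-type GV. Itpr3 was low, from 0.0206 FPKM in wild-type GV to 1.94 in Erk-/- GV. Itpr1 thus made up 55.3% of the FPKM of the IP3 receptor genes in the library labelled Erk-/- MII and 51.9% in wild-type MII, against 45.1% in Erk-/- GV and 66.5% in wild-type GV. Ryanodine receptor genes, the other release channels, were at or below 0.833 FPKM in all libraries. Plcz1, the sperm phospholipase gene, was listed at 0 in all 4.

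Of the 4 entry genes among the 9, the channel genes Orai1, Cacna1h and Trpm7 were lower at MII than at GV in both genotypes, and Stim1 was low throughout. Orai1 encodes the pore of the store-operated channel (mm9 chromosome 5, 123465083 to 123480461). It had 1.70 FPKM in the library labelled Erk-/- MII (1.11 to 2.27) and 2.44 in wild-type MII (1.70 to 3.16), against 72.5 in Erk-/- GV (62.5 to 73.9) and 74.3 in wild-type GV (64.5 to 74.9). Both MII libraries lay far below both GV libraries, and within each stage the bounds of the 2 genotypes overlapped. Orai1 at MII stood at 2.34% of its GV level in the oocytes labelled Erk-/- and at 3.28% in wild type, the lowest shares among the 8 genes in each genotype (2.70% and 5.82% scaled). Of all genes, 0.711% had a lower MII over GV ratio in the oocytes labelled Erk-/- and 7.12% in wild type.

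Its relative Orai3 ran the other way, with 6.48 FPKM in the library labelled Erk-/- MII and 5.46 in wild-type MII, against 1.79 in Erk-/- GV and a listed 0 in wild-type GV. Orai2 was listed at 0 in all libraries. Orai3 therefore held 79.2% of the ORAI FPKM in the library labelled Erk-/- MII and 69.1% in wild-type MII, against 2.41% in Erk-/- GV.

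Stim1 encodes the sensor in the store membrane that opens ORAI channels (mm9 chromosome 7, 109416338 to 109585369). It had 0.499 FPKM in the library labelled Erk-/- MII and 1.40 in wild-type GV, and was listed at 0 in wild-type MII and Erk-/- GV, so no ratio is given. Stim2, the second sensor gene, had 2.34 FPKM in the library labelled Erk-/- MII and 0.167 in wild-type MII, against 8.63 in Erk-/- GV and 6.40 in wild-type GV. It was higher than Stim1 in all 4 libraries. The Stim2 values at MII, of which the first was 14.0-fold the second, are low enough that the added 1 reduces the log2 ratio to 1.52. Tmem66, the older symbol of Saraf, whose protein restrains store-operated entry, had 234 FPKM in the library labelled Erk-/- MII and 259 in wild-type MII, against 80.9 in Erk-/- GV and 84.2 in wild-type GV.

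Cacna1h encodes the T-type voltage-gated channel CaV3.2 (mm9 chromosome 17, 25511232 to 25570728). It had 17.0 FPKM in the library labelled Erk-/- MII (16.0 to 18.1) and 4.70 in wild-type MII (4.21 to 5.20), against 39.3 in Erk-/- GV (37.7 to 41.4) and 22.3 in wild-type GV (21.0 to 23.6). It was higher in each library labelled Erk-/- than in wild type of the same stage, and lower at MII than at GV in both genotypes. The MII library labelled Erk-/- had 3.62-fold the wild-type level, and Erk-/- GV had 1.76-fold. Of the other T-type genes, Cacna1g was at or below 0.490 FPKM, and Cacna1i was at 2.08 to 5.38 FPKM.

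Trpm7 encodes a cation channel joined to a kinase domain (mm9 chromosome 2, 126617294 to 126701997). It had 5.15 FPKM in the library labelled Erk-/- MII (4.60 to 5.70) and 3.30 in wild-type MII (2.87 to 3.73), against 25.6 in Erk-/- GV (24.1 to 27.2) and 9.45 in wild-type GV (8.68 to 10.2). The library labelled Erk-/- MII had 1.56-fold the wild-type level, and Erk-/- GV had 2.71-fold. Trpm6, its nearest relative, was listed at 0 in 3 libraries and had 0.555 FPKM in the library labelled Erk-/- MII.

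The 2 calcium pumps were not lower at MII in wild type. Atp2a2 encodes SERCA2, which returns calcium to the endoplasmic reticulum (mm9 chromosome 5, 122903522 to 122952234). It had 219 FPKM in the library labelled Erk-/- MII (216 to 227) and 118 in wild-type MII (116 to 123), against 141 in Erk-/- GV (138 to 148) and 112 in wild-type GV (109 to 117). The wild-type libraries had overlapping bounds, and the library labelled Erk-/- MII stood above the other 3. It was 1.85-fold the wild-type level at MII, and 1.26-fold at GV. The other SERCA genes, Atp2a1 and Atp2a3, were listed at 0 in every library.

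Atp2b1 encodes PMCA1, which pumps calcium out across the plasma membrane (mm9 chromosome 10, 98377786 to 98488777). It had 20.4 FPKM in the library labelled Erk-/- MII (19.1 to 21.7) and 25.2 in wild-type MII (23.7 to 26.5), against 22.1 in Erk-/- GV (20.6 to 23.5) and 13.9 in wild-type GV (12.9 to 14.9). In the oocytes labelled Erk-/- the MII and GV bounds overlapped, and wild-type GV was the lowest library. Its log2 ratio of MII over GV was -0.11 in the oocytes labelled Erk-/- (0.09 scaled) and 0.82 in wild type (1.60 scaled). Atp2b3, another PMCA gene, had 2.22 FPKM in the library labelled Erk-/- MII and was listed at 0 in wild-type MII, against 10.7 in Erk-/- GV and 16.1 in wild-type GV. Atp2b4 had 11.0 FPKM in the library labelled Erk-/- MII and 4.73 in wild-type MII, against 7.40 in Erk-/- GV and 3.26 in wild-type GV. The PMCA FPKM was thus 84.2% Atp2b1 in wild-type MII, against 41.7% in wild-type GV.

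**Figure D2:**
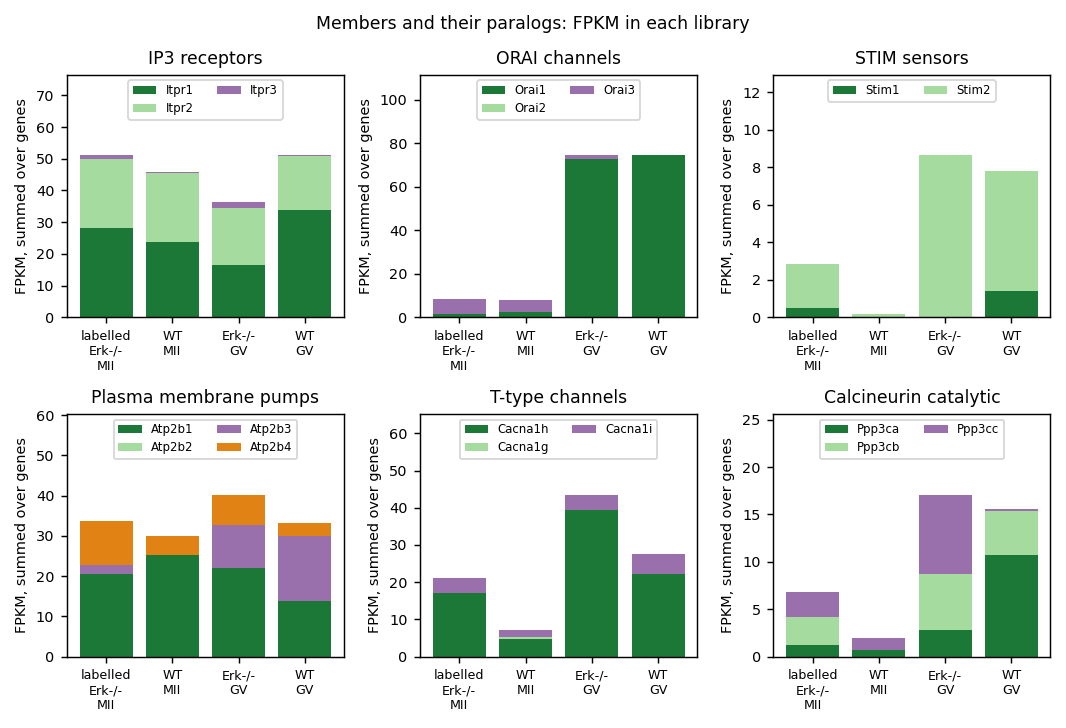
FPKM of members and their paralogs (stacked on linear vertical axes from 0) in the 4 libraries, for 6 gene families. ORAI FPKM was mostly Orai1 in the GV libraries (97.6% in Erk-/- and 100% in wild type) and mostly Orai3 in the MII libraries, while Itpr1 and Itpr2 were present in all 4.

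Elements near the 3′ end can affect whether a stored mRNA is kept or lost. The last 100 bases of an annotated transcript of each gene were therefore read (GENCODE M21, GRCm38). The letters TTTTAT and TTTTAAT, forms of the cytoplasmic polyadenylation element bound by CPEB proteins, were searched on the sense strand, since the element acts in RNA. This search was chosen after the values of the 9 genes had been seen. Atp2a2 and Atp2b1 each held 1 match, and the other 7 genes held none. Genes without a match were not all 2-fold lower at MII. Itpr1 held none, and its log2 ratio of MII over GV was 0.75 in the oocytes labelled Erk-/- and -0.50 in wild type (0.30 scaled). Of 19338 protein-coding genes with at least 100 bases of 3′ UTR, 17.9% held a match in this window. The matches are shown first, as 30 bases 5′ to 3′ with the element in capitals. Orai1 and Camk2g, 2 of the genes without a match and lower at MII in both genotypes, follow. In these, letters matching a polyadenylation hexamer are in capitals. Whether the element bears on these levels was not tested.
Atp2a2 (GRCm38 chr5:122456400-122456429, minus strand): TTTTATtgtaacagacattgttttgccaac
Atp2b1 (GRCm38 chr10:99026069-99026098, plus strand): TTTTATtatttgtctatttgtaaagtttat
Orai1 (GRCm38 chr5:123030427-123030456, plus strand): aaaagaaaccttcagggatactaATTAAAa
Camk2g (GRCm38 chr14:20734875-20734904, minus strand): gatatttAATAAAataacctttaaacagtc

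The elements began 90 bases before the annotated end in Atp2a2 and 75 bases before it in Atp2b1. The hexamer letters shown began 7 bases before the annotated end in Orai1 and 23 bases before it in Camk2g. Over the whole 3′ UTR there were 5 matches in Atp2a2, 9 in Atp2b1, 4 in Trpm7, 2 in Itpr1 and 1 in Ppp3ca, in UTRs of 811, 3024, 1261, 1270 and 554 bases, and none in the UTRs of Orai1, Camk2g, Cacna1h and Stim1. Longer UTRs offer more positions for a match. A hexamer AATAAA or ATTAAA lay in the last 40 bases of 8 of the 9 transcripts, all but Ppp3ca, against 73.7% of all genes. Whether oocytes use these annotated ends, or these hexamers as signals, was not tested.

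Of the 8 genes, Camk2g, which reads the signal, differed most between genotypes at MII. It encodes the gamma subunit of calmodulin-dependent kinase II, which starts the exit from metaphase arrest in mouse eggs (mm9 chromosome 14, 21554097 to 21613310). It had 37.9 FPKM in the library labelled Erk-/- MII (35.7 to 40.3) and 5.73 in wild-type MII (4.93 to 6.55), against 79.0 in Erk-/- GV (74.9 to 83.3) and 75.4 in wild-type GV (72.3 to 79.3). The GV libraries had overlapping bounds, and wild-type MII lay far below the other 3. Camk2g at MII stood at 48.0% of its GV level in the oocytes labelled Erk-/- and at 7.60% in wild type (55.2% and 13.5% scaled). The MII library labelled Erk-/- had 6.61-fold the wild-type level, and 7.44% of all genes had a higher log2 ratio in that comparison.

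Camk2a and Camk2b, genes of other subunits of this kinase, were listed at 0 in every library. Camk2d was listed at 0 in 3 libraries and had 0.896 FPKM in the library labelled Erk-/- MII, so Camk2g made up 97.7% of the family's FPKM there and all of it elsewhere.

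Ppp3ca encodes a catalytic subunit of calcineurin, the calcium-dependent phosphatase known from frog eggs to act at exit from metaphase (mm9 chromosome 3, 136333734 to 136598743). It had 1.20 FPKM in the library labelled Erk-/- MII (0.781 to 1.64) and 0.698 in wild-type MII (0.362 to 1.0), against 2.83 in Erk-/- GV (2.02 to 3.61) and 10.7 in wild-type GV (8.84 to 12.1). Wild-type GV stood above the other 3, and the MII libraries had overlapping bounds. Ppp3cb, a second catalytic subunit gene, had 2.97 FPKM in the library labelled Erk-/- MII and was listed at 0 in wild-type MII, against 5.91 in Erk-/- GV and 4.65 in wild-type GV. Ppp3cc had 2.64 FPKM in the library labelled Erk-/- MII and 1.29 in wild-type MII, against 8.34 in Erk-/- GV and 0.205 in wild-type GV. Ppp3r1, the regulatory subunit gene, had 105 FPKM in the library labelled Erk-/- MII and 28.7 in wild-type MII, against 32.8 in Erk-/- GV and 17.5 in wild-type GV.

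The 8 genes of at least 1 FPKM on average were then counted in each comparison by a rule of size, at least 2-fold on the log2 scale above. In wild type, 5 of 8 were lower at MII than at GV (Orai1, Camk2g, Ppp3ca, Cacna1h and Trpm7) and none higher, against 49.6% lower and 20.6% higher among all genes. The median log2 ratio of the 8 was -1.65, and that of all genes -0.97. Scaling gave 4 lower and 1 higher (Atp2b1), since Trpm7 then stood at -0.59, against 40.4% lower and 29.6% higher among all genes. It changed the share of higher genes among all genes counted as 2-fold apart to 42.3%, against 29.3% as deposited. The count among the 8 is near the share of lower genes overall. Individually, Orai1, Camk2g and Ppp3ca lay toward the low end, with 7.12%, 15.2% and 23.7% of all genes below them.

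In the oocytes labelled Erk-/-, 4 of 8 were lower at MII (Orai1, Trpm7, Cacna1h and Camk2g) and none higher, against 35.6% lower and 22.9% higher among all genes. The median was -0.92, against -0.26 for all genes. Cacna1h (-1.16) and Camk2g (-1.04) were close to the limit of 2-fold and passed inside it under scaling (-0.96 and -0.84). This left 2 genes lower, against 32.1% of all genes when scaled. Camk2g was also inside the limit at the deposited bounds (-0.88).

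Between the GV libraries, 1 of 8 was higher in Erk-/- (Trpm7, log2 ratio 1.35) and 2 were lower (Ppp3ca, -1.62, and Itpr1, -1.0), against 18.4% higher and 22.9% lower among all genes. Itpr1 was inside the limit under scaling (-0.91) and at the deposited bounds (-0.86). Orai1 (-0.03) and Camk2g (0.07) had overlapping bounds between these libraries. Cacna1h (0.79), Atp2b1 (0.63) and Atp2a2 (0.34) were higher in Erk-/- by less than 2-fold.

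Between the MII libraries, 2 of 8 were higher in the one labelled Erk-/- (Camk2g, 2.53, and Cacna1h, 1.66) and none lower, against 31.4% higher and 7.43% lower among all genes. Both remained beyond 2-fold under scaling (2.05 and 1.20) and at the deposited bounds (2.28 and 1.45). Among all genes, 24.6% were higher and 17.1% lower when scaled, and 23.4% and 3.94% at the bounds. The bounds of Orai1 and Ppp3ca overlapped between these libraries. The share of higher genes among all genes 2-fold apart was 80.9% as deposited and 59.1% scaled, and the median of all genes was 0.31 as deposited and 0.00 scaled.

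The maturation ratio in the oocytes labelled Erk-/- minus that in wild type was at least 2-fold positive in 3 of 8 genes and at least 2-fold negative in none, against 41.2% and 18.8% among all genes. The positive genes were Camk2g (2.46), Ppp3ca (1.99) and Itpr1 (1.24). At the deposited bounds Camk2g alone was beyond 2-fold (2.08), against 29.8% positive and 11.5% negative among all genes. Ppp3ca (0.92) and Itpr1 (0.97) were then inside the limit. For Camk2g the GV libraries were alike within their bounds, so the difference lay in the MII libraries. For Ppp3ca and Itpr1 the larger gap was between the GV libraries. For Atp2b1 (-0.93) and Trpm7 (-0.84) the difference was negative, and scaling moved both beyond 2-fold (-1.51 and -1.32). It also put Itpr1 inside the limit (0.63) and turned Atp2a2 from 0.55 as deposited to -0.07. When scaled, 32.7% of all genes were at least 2-fold positive and 26.6% negative. Among all genes counted as 2-fold apart in this difference, 68.7% were positive as deposited and 55.2% scaled. These comparisons share libraries and are not independent of each other.

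**Figure D3:**
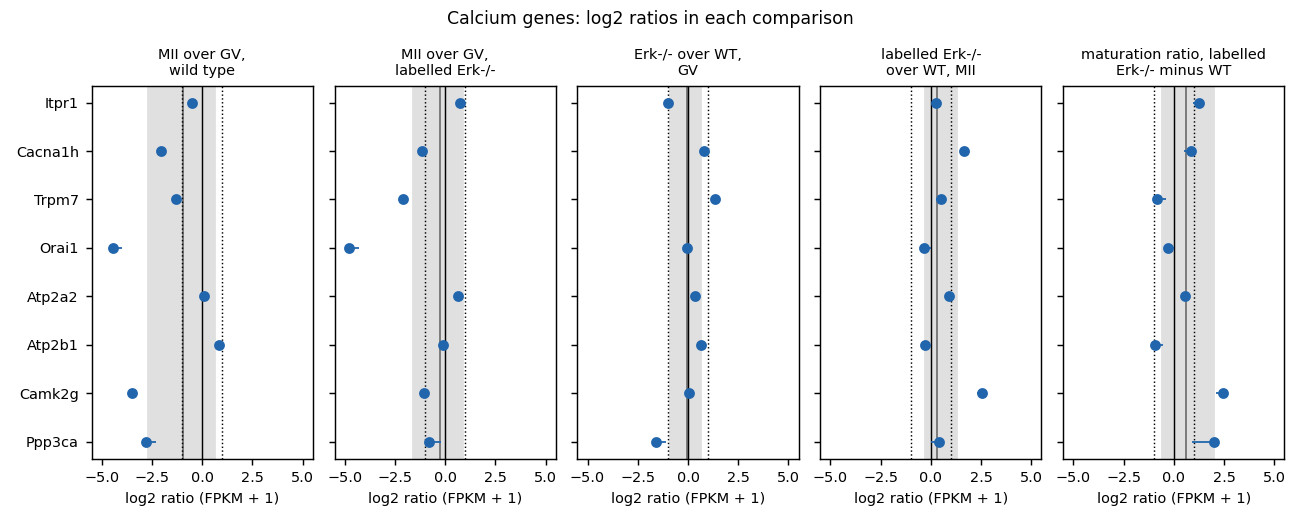
Log2 ratios of (FPKM + 1) of the 8 calcium genes of at least 1 FPKM on average (points, horizontal axes) in 4 comparisons and in the difference of maturation ratios, with a line to the value at the deposited bounds nearest to 0. Grey bands and lines are the middle 50% and the median of 9990 genes, and dotted lines mark 2-fold. Points outside the band included Camk2g (2.53) and Cacna1h (1.66) at MII and Orai1 over maturation (-4.45 and -4.77). Points of other genes lay outside it as well.

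The 8 genes did not share a single pattern over the 4 libraries. By the Euclidean distance between their centred log2 values, the closest pair was Atp2a2 and Atp2b1 (0.86), followed by Cacna1h and Trpm7 (0.91) and by Cacna1h and Camk2g (1.05). The most distant was Orai1 from Atp2a2 (5.04). Among 5277 genes of at least 10 FPKM on average, the nearest genes were Commd2 to Itpr1, Mpzl1 to Cacna1h, Appbp2 to Trpm7, Dhx29 to Orai1, Tm9sf3 to Atp2a2, Ppm1a to Atp2b1 and Ercc6l to Ppp3ca, at distances of 0.04 to 0.22. With 4 libraries, a small distance describes these values only.

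A wider list of 96 other calcium genes in 5 roles was read for context, of which 47 had a mean of at least 1 FPKM. In wild type 27 of the 47 were at least 2-fold lower at MII than at GV and 11 higher, against 49.6% lower and 20.6% higher among all genes (median -1.22, against -0.97 for all genes). Scaled values gave 22 lower and 16 higher in wild type, against 40.4% and 29.6% of all genes. In the oocytes labelled Erk-/- 14 were lower and 10 higher, against 35.6% and 22.9% of all genes (median -0.45, against -0.26), and scaled values gave 11 lower and 11 higher, against 32.1% and 25.0%. Between the GV libraries 5 were higher in Erk-/- and 2 lower, against 18.4% and 22.9% of all genes (median -0.12, against -0.06). Between the MII libraries 21 were higher in the one labelled Erk-/- and 1 lower, against 31.4% and 7.43% of all genes (median 0.85, against 0.31). Scaled values gave 18 higher and 6 lower there, against 24.6% and 17.1% (median 0.36, against 0.00). The counts by role that follow stand against these same shares of all genes at MII. As for Mapk3, some values of Tmem66, given above, and of Calr, Rcn2, Calm2 and Wee2, given below, lay above their own upper bounds.

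Of the mitochondrial calcium genes and calcium-binding proteins of the store, 9 of 16 were higher in the MII library labelled Erk-/- and none lower (8 and none scaled), against 31.4% higher and 7.43% lower among all genes (24.6% and 17.1% scaled). Calr, the main calcium buffer of the endoplasmic reticulum, had 168 FPKM in the library labelled Erk-/- MII and 21.6 in wild-type MII, against 425 in Erk-/- GV and 448 in wild-type GV. Hspa5, the store chaperone BiP, had 171 FPKM in the library labelled Erk-/- MII and 18.1 in wild-type MII, against 176 in Erk-/- GV and 231 in wild-type GV. In both genes wild-type MII was the lowest library by far, as for Camk2g.

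Vdac3, a channel of the outer mitochondrial membrane, had 45.5 FPKM in the library labelled Erk-/- MII and 4.03 in wild-type MII, against 152 in Erk-/- GV and 166 in wild-type GV. Rcn2, a further calcium-binding protein of the store, went against this pattern, with 167 FPKM in each MII library, against 24.1 in Erk-/- GV and 28.6 in wild-type GV. Mcu, the pore of the uniporter, had 99.6 FPKM in the library labelled Erk-/- MII and 109 in wild-type MII, against 22.7 in Erk-/- GV and 25.7 in wild-type GV.

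Among the other decoders, 5 of 12 were higher in the MII library labelled Erk-/- and 1 was lower (4 and 4 scaled), against 31.4% and 7.43% of all genes. The calmodulin gene Calm2 had 118 FPKM in the library labelled Erk-/- MII and 26.0 in wild-type MII, against 206 in Erk-/- GV and 127 in wild-type GV. Calm3 had 8.28 FPKM in the library labelled Erk-/- MII and was listed at 0 in wild-type MII, against 19.9 in Erk-/- GV and 29.3 in wild-type GV. Calmodulin genes have close copies and pseudogenes in the genome, and it is not stated how reads were shared among them. As deposited, the gene lower at MII in the library labelled Erk-/- was Wee2. It encodes a kinase that is a target of calmodulin-dependent kinase II in mouse eggs. Wee2 had 171 FPKM in the library labelled Erk-/- MII and 500 in wild-type MII, against 104 in Erk-/- GV and 128 in wild-type GV. Scaled, the lower genes were Wee2 (log2 ratio -2.08), Rcan1 (-1.44), Rcan3 (-1.17) and Fbxo43 (-1.14).

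Of the release genes, 2 of 7 were higher in the MII library labelled Erk-/- and none lower (2 and 1 scaled), which is near the 31.4% and 7.43% of all genes. Plce1, a phospholipase C gene, had 5.62 FPKM in the library labelled Erk-/- MII and 3.27 in wild-type MII, against 39.0 in Erk-/- GV and 22.7 in wild-type GV. Ahcyl1, whose protein binds and inhibits IP3 receptors, had 9.66 FPKM in the library labelled Erk-/- MII and 5.92 in wild-type MII, against 20.3 in Erk-/- GV and 29.1 in wild-type GV. Plcg2 had 3.52 FPKM in the library labelled Erk-/- MII and was listed at 0 in wild-type MII, against 9.69 in Erk-/- GV and 12.8 in wild-type GV.

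Of the entry genes, 2 of 8 were higher in the MII library labelled Erk-/- and none lower (2 and 1 scaled), again near the shares of all genes. Cacnb3, an auxiliary channel subunit, had 8.31 FPKM in the library labelled Erk-/- MII and 6.16 in wild-type MII, against 35.3 in Erk-/- GV and 45.1 in wild-type GV. Of the other pumps and exchangers, 3 of 4 were higher there and none lower (2 and none scaled), against 31.4% and 7.43% of all genes, and 4 genes are too few to set against a share. Atp2c1, a calcium and manganese pump of the Golgi, had 167 FPKM in the library labelled Erk-/- MII and 91.9 in wild-type MII, against 78.1 in Erk-/- GV and 109 in wild-type GV. Its relative Atp2c2 had 15.3 FPKM in the library labelled Erk-/- MII and 3.64 in wild-type MII, against 23.7 in Erk-/- GV and 30.9 in wild-type GV. The sodium-calcium exchanger genes Slc8a1, Slc8a2 and Slc8a3 were listed at 0 in all libraries.

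**Figure D4:**
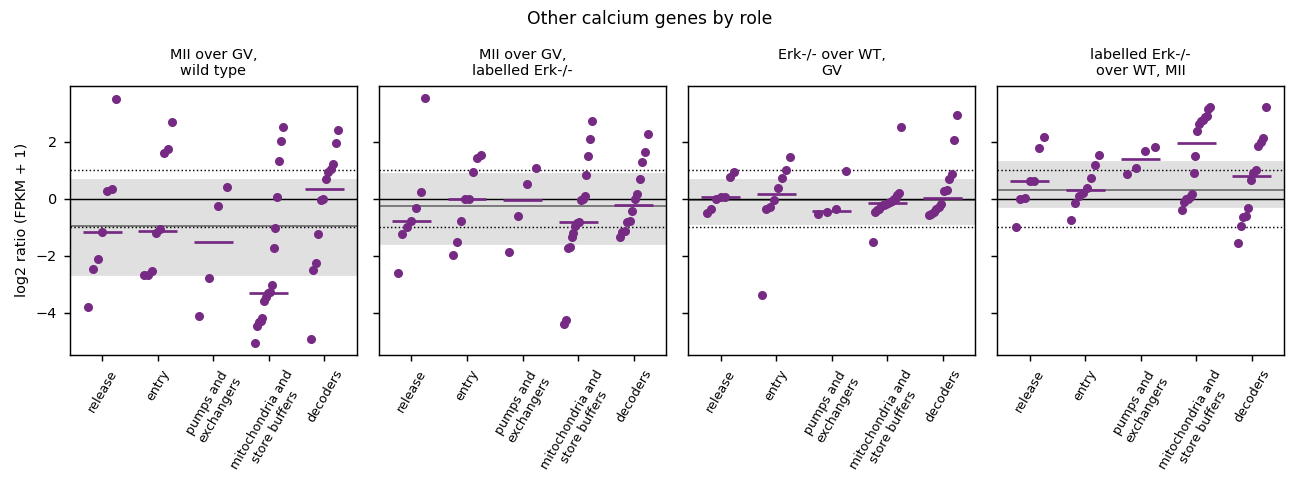
Log2 ratios of (FPKM + 1) (vertical axes) of 47 other calcium genes of at least 1 FPKM on average, as points grouped by role, in 4 comparisons; short bars are medians of each role. Grey bands and lines are the middle 50% and the median of 9990 genes, and dotted lines mark 2-fold; at MII the mitochondrial and store genes had a median of 1.94.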

How the data were processed

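Per the file headers, the authors deposited FPKM per gene and a pair of confidence bounds. CASAVA 1.8, TopHat and mouse build mm9 are named in the submitters' processing notes. Not stated are the program behind FPKM, the level of its bounds, the strand setting and the handling of reads with several matches, so overlapping or copied genes are uncertain. FPKM holds no counts, so depth is known only relatively, and bounds cover uncertainty within a library. Per library, 709 to 1018 rows had a value above their own upper bound. The 504 extra rows of repeated symbols were summed. Locus starts count from 0 (gene lengths matched RefSeq in 9169 genes, and in 558 if they count from 1), so each was raised by 1.

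Ratios are log2 of (FPKM + 1), over the 9990 genes that averaged at least 1 FPKM. A ratio of at least 2-fold was counted, with no test. Alternatives were a pseudocount of 0.1, median-of-ratios scaling, minima of 10 FPKM or none, omission of genes listed at 0, the highest row per symbol, and the deposited bounds. All 9 members were named. From the wider list, the rule took per role the 3 genes of highest mean FPKM and the 1 with the largest ratio at MII, and paralogs of members. Mcu, Ppp3r1, Rcan1, Rcan3, Fbxo43 and genes listed at 0 fall outside it and were named after their values were seen. Some genes that the rules name are not reported here. The members, lists and tests were chosen with earlier results of these data known. The counting was tried on simulated, scaled data in which few genes changed, as many up as down. That trial does not cover the many one-sided changes, the listed values of 0 or the unscaled counts here. Python 3.11.15, numpy 2.4.6, pandas 2.3.3 and matplotlib 3.10.9 were used.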

Additional observations from a re-analysis of the deposited data

Results flagged for a closer look

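Itpr1 and Atp2b1 had ratios of opposite sign in the 2 genotypes or at the 2 stages, as did Ppp3ca at the 2 stages. With 1 library per group none of these differences was tested. For Itpr1 the log2 ratio of MII over GV was 0.75 in the oocytes labelled Erk-/- and -0.50 in wild type, and that of the library labelled Erk-/- over wild type was 0.24 at MII and -1.0 at GV. The negative maturation ratio and the positive MII ratio of Itpr1 turned under median-of-ratios scaling (0.30 and -0.28). For Atp2b1 the ratio of MII over GV was -0.11 in the oocytes labelled Erk-/- and 0.82 in wild type, and that of the library labelled Erk-/- over wild type was -0.29 at MII and 0.63 at GV. The first of these turned under scaling (0.09), and its deposited bounds overlapped. For Ppp3ca the ratio of the library labelled Erk-/- over wild type was 0.38 at MII, with overlapping bounds, and -1.62 at GV.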

How the results depend on the processing

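Of 40 log2 ratios (8 genes in 5 comparisons), none that was at least 2-fold changed sign under median-of-ratios scaling. The pseudocount could change a sign only in the maturation difference, and did not. The other alternatives could not change a sign. The row choice and the filters leave the ratio of a kept gene as it is, and the bounds only bring a ratio toward 0. Median-of-ratios scaling changed the sign of 5 smaller ratios and moved 8 across the 2-fold limit, the conservative bounds moved 4 across it and a pseudocount of 0.1 moved 2. Scaling shifted the median of all genes by 0.67 for wild-type maturation, 0.18 for maturation labelled Erk-/-, 0.06 at GV, -0.31 at MII and -0.49 for the maturation difference. Under scaling 1 gene was higher over wild-type maturation (0 as deposited), 2 were lower over maturation labelled Erk-/- (4), 1 was lower in Erk-/- at GV (2) and 2 were lower in the difference (0). The scaled shares of all genes were, in that order, 29.6%, 32.1%, 20.8% and 26.6%. A minimum mean of 10 FPKM and the conservative bounds each left 1 gene lower in Erk-/- at GV, the first because Ppp3ca was no longer counted. The shares of all genes lower there were 14.9% and 17.3%. The bounds left 1 gene positive in the difference (3 as deposited), without Ppp3ca and Itpr1, against 29.8% of all genes. Other counts stayed within 1.5 times of those reported. No paired analysis was possible because each group has 1 library. Values of a few FPKM (Orai1 and Ppp3ca at MII, Stim1) have wide bounds, and a listed 0 can be a failed estimate.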

Other observations

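Ratios were also summarised by the letters searched in the last 100 bases of the transcript. This covered genes of at least 1 FPKM on average with at least 100 bases of 3′ UTR. The values are as deposited, and scaling shifts such medians and shares, as described above. The 1782 genes that held TTTTAT or TTTTAAT there had a median log2 ratio of MII over GV of 0.37 in the oocytes labelled Erk-/- and 0.26 in wild type. The 6835 genes that did not hold them had medians of -0.39 in the oocytes labelled Erk-/- and -1.28 in wild type. In wild type, 29.1% of the genes with a match and 54.4% of those without were at least 2-fold lower at MII. Between the MII libraries, 15.5% of the genes with a match and 34.9% of those without were at least 2-fold higher in the one labelled Erk-/-. At least 2-fold lower there were 10.6% of the genes with a match and 6.06% of those without. Atp2a2 and Atp2b1 were in the first set, and the other 7 calcium genes in the second or below 1 FPKM. These are descriptions over genes that are not independent replicates, and base composition and the length of the transcript were not taken into account. The search was chosen after the values of the calcium genes had been seen. The labels do not state how far the library preparation depends on poly(A) tail length. Whether the element bears on any of these ratios was not tested.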
